A study of Mus musculus with 4 samples.

Results

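The expression of 10 genes that mark T cells, natural killer (NK) cells and myeloid cells was examined in RNA of CD43-depleted splenocytes, before and after culture with LPS, the bacterial lipopolysaccharide used to activate B cells. The genes were Cd3e, Cd3g, Cd4, Cd8a and Thy1 for T cells, Ncr1 for NK cells, Lyz2 and Csf1r for monocytes and macrophages, and S100a8 and S100a9 for neutrophils. They were taken by name, 10 of the 41342 named gene rows of the count table. The study altered the palindrome of the 3'RR, the enhancer region at the end of the immunoglobulin heavy chain locus, in mice of strain 129. The ΔleftPAL mice lack the hs3a and hs1,2 enhancers together with the inverted repeats between them. The ΔIRIS mice lack those inverted repeats and keep all the 3'RR enhancers, with hs3a inverted. Both lines were made in the same embryonic stem cell line, and their selection cassette was removed by breeding with cre-expressing mice. The male animals were 8 to 12 weeks old. Resting splenocytes were passed over a density gradient and depleted of CD43+ cells, and no agent was added. LPS splenocytes were purified in the same way, kept for 48 h in medium that contained LPS at 5 μg per ml, and passed over a gradient again. There was 1 library for each of the 4 groups, made according to the labels from a pool of 4 mice, whereas the study's methods give 2 pooled RNAs per genotype and a legend gives 2 experiments with 3 mice per genotype. The differences below therefore have no replicate check, and they compare libraries, not genotypes or treatments. The wt libraries were not analysed here.

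Depletion of CD43 leaves B cells behind because resting follicular B cells carry little of this sialoglycoprotein, while T cells, NK cells and most myeloid cells carry it. The CD3 chains carry the signal of the T-cell receptor, CD4 and CD8α are its co-receptors on helper and cytotoxic T cells, and Thy1 is a surface glycoprotein of mouse T cells. CD4 and CD8α are also found on subsets of splenic dendritic cells. Ncr1 encodes NKp46, an activating receptor of NK cells. Lyz2 encodes the lysozyme of macrophages and granulocytes, Csf1r the receptor for the growth factor of monocytes and macrophages, and S100a8 and S100a9 the 2 subunits of calprotectin, abundant in neutrophils.

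In mm10, Cd3g (chr9:44969572-44980431, 7 counted exon blocks) and Cd3e (chr9:44998743-45009590, 8 blocks) flank Cd3d on chromosome 9, where Thy1 also lies (chr9:44043384-44048579). Cd4 (chr6:124864692-124888221) and Cd8a (chr6:71373427-71379171) are on chromosome 6, Ncr1 on chromosome 7 (chr7:4337724-4345164) and Lyz2 on chromosome 10 (chr10:117277334-117282274). S100a8 (chr3:90669071-90670034) and S100a9 (chr3:90692632-90695721) are neighbours on chromosome 3. All values are sums over the counted exons of a gene.

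The windows of 150 bases before the outermost annotated exon are shown for 5 members whose levels differed between the resting libraries in opposite directions, S100a8, S100a9 and Cd3g on the lower side and Lyz2 and Cd8a on the higher side in ΔIRIS. They are in the orientation of the gene, from RefSeq promoters of GRCm38.p6, at chr3:90668828-90668977 (+) for S100a8, chr3:90695722-90695871 (-) for S100a9, chr10:117282322-117282471 (-) for Lyz2, chr9:44980432-44980581 (-) for Cd3g and chr6:71373277-71373426 (+) for Cd8a. The capitals mark matches to 4 motifs searched on both strands, GAGGAA for PU.1, TTGCNNAA for C/EBP, TGTGGT for RUNX and TATAAA for a TATA box, none of which overlapped another.
S100a8: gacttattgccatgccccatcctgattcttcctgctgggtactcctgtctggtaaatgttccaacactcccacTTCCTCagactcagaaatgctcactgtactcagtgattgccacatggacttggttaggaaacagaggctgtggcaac
S100a9: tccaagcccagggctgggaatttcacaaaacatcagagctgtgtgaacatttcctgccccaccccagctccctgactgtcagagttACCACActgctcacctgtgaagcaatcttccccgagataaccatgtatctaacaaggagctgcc
Lyz2: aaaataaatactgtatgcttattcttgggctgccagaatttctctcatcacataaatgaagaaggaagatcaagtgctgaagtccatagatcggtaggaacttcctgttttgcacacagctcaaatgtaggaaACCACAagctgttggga
Cd3g: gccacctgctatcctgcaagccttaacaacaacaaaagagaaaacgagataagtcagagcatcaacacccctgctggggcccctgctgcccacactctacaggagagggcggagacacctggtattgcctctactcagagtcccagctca
Cd8a: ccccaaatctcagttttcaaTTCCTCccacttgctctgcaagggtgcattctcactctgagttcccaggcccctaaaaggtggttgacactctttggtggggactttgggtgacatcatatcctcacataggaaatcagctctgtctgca
The S100a8 window held the PU.1-type letters on the minus strand, 170 to 165 bases before the RefSeq start, and the Cd8a window held them 130 to 125 bases before it. These letters occurred in 14.4% of 27025 promoters, searched over the 150 bases directly before the RefSeq start. The RUNX-type letters stood on the minus strand in S100a9, 64 to 59 bases before the start, and in Lyz2, 66 to 61 bases before it, against 8.53% of promoters. The C/EBP-type letters (5.48% of promoters) and the TATA box letters (8.08%) were in none of the 5 windows, and the Cd3g window held none of the 4 motifs. The outermost exon began 93 bases before the RefSeq start in S100a8 and 49 bases before it in Lyz2. The bases next to that start were therefore not searched in these 2 genes, and the percentages refer to another stretch than theirs. A match describes the sequence and is not evidence of a bound site.

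The libraries held 23615496 and 27777790 counts in resting and LPS ΔleftPAL cells and 28707002 and 29776108 counts in resting and LPS ΔIRIS cells. The floor used where a gene had 0 reads, 3 counts per library, corresponded to 0.102 to 0.123 CPM, the counts per 1000000 counts of effective library size. The 10 genes of a B-cell list were detected in every library and summed to 6923 to 14031 CPM. Hemoglobin and other erythroid genes summed to 41305 and 28663 CPM in resting ΔleftPAL and ΔIRIS cells and to 58.2 and 124 CPM after LPS. Hemoglobin RNA was thus abundant at rest. Spn, the gene of CD43 itself, was read at 22.0 CPM in resting and 65.6 CPM in LPS ΔleftPAL cells, and at 12.5 and 75.2 CPM in ΔIRIS cells. It was thus present in all 4 libraries, 2.98-fold higher after LPS in ΔleftPAL (log2 ratio 1.58, interval 1.44 to 1.72) and 6.01-fold higher in ΔIRIS (2.59, 2.43 to 2.75).

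By gene counts all 10 members were above the floor in both resting libraries, and only Lyz2 and Csf1r were above it in the LPS libraries. Compared per length as TPM in resting ΔleftPAL cells, Lyz2 stood highest at 115 TPM, followed by Csf1r at 56.9, S100a8 at 22.5 and S100a9 at 20.9 TPM. The T-cell members lay lower, with Cd4 at 6.04, Cd3g at 4.13, Cd8a at 2.27, Thy1 at 0.964 and Cd3e at 0.785 TPM, and Ncr1 stood at 1.17 TPM. In resting ΔIRIS cells the order began with Lyz2 at 170 and Csf1r at 74.1 TPM, followed by Cd4 at 8.39, S100a8 at 4.17, Cd8a at 3.40 and S100a9 at 3.20 TPM. The lowest were Cd3g at 0.611, Ncr1 at 0.465, Thy1 at 0.300 and Cd3e at 0.203 TPM. Macrophage lysozyme and the Csf1r receptor thus led in both resting libraries, while the calprotectin genes stood above Cd4 in ΔleftPAL and below it in ΔIRIS. On the same scale the B-cell antigen receptor gene Cd79a stood at 576 and 577 TPM in the resting libraries. Since these are bulk libraries, fewer cells of a type and less RNA per cell cannot be told apart.

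**Figure D1:**
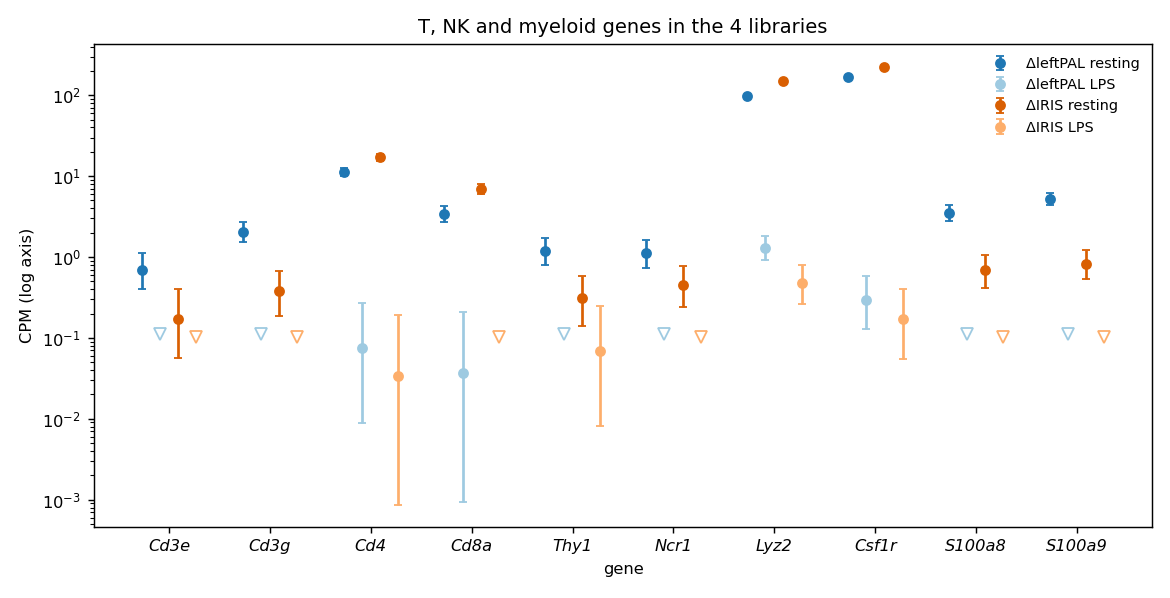
Level of the 10 members in each library in CPM on a log axis, with exact 95% Poisson intervals of the counts. Open triangles mark the floor of 3 counts for libraries with 0 reads, and every member stands higher in the resting library than in the LPS library of the same genotype.

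The first comparison was that of LPS and resting cells of the same genotype, which shows how much of each non-B-cell signal was left after culture. The monocyte and macrophage members were the most deeply read. Csf1r, counted over 22 exon blocks of chr18:61105572-61132149, had 4127 counts in resting and 8 in LPS ΔleftPAL cells, or 169 and 0.297 CPM, and 6532 and 5 counts in ΔIRIS cells, or 225 and 0.171 CPM. Its LPS level was 569-fold lower in ΔleftPAL (log2 ratio -9.15, interval -10.37 to -8.17) and 1317-fold lower in ΔIRIS (-10.36, -11.99 to -9.14). Both LPS libraries were far below both resting libraries. Lyz2 fell from 2374 to 35 counts in ΔleftPAL, from 97.2 to 1.30 CPM, and from 4322 to 14 counts in ΔIRIS, from 149 to 0.478 CPM. The differences were 74.8-fold (-6.23, -6.75 to -5.75) and 311-fold (-8.28, -9.15 to -7.53). Lysozyme thus kept a small signal after LPS that was more than the floor, and of the reads of Lyz2 and Csf1r together it made up 81.4% of 43 reads in ΔleftPAL and 73.7% of 19 reads in ΔIRIS, against 36.5% and 39.8% at rest.

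Lyz2 has a close copy, Lyz1, next to it on chromosome 10. Of the 31-base words of the Lyz2 transcripts, 32.8% occur in Lyz1 transcripts as well, but none of the 150-base words does, so a full-length read can be assigned. Lyz1 itself had 48 and 1 counts in resting and LPS ΔleftPAL cells and 63 and 0 counts in ΔIRIS cells.

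The calprotectin genes were at 0 reads in both LPS libraries. S100a8 had 86 counts in resting ΔleftPAL and 20 in resting ΔIRIS cells, and S100a9 had 128 and 24. With the floor of 3 counts per library, S100a8 was at least 31.6-fold lower after LPS in ΔleftPAL and at least 6.72-fold lower in ΔIRIS. S100a9 was at least 47.1-fold lower in ΔleftPAL and at least 8.07-fold lower in ΔIRIS. These bounds set the LPS library at the floor and leave out the counting error of the resting library. The upper ends of the 95% intervals of the log2 ratio, which include it, were -4.65 and -2.32 for S100a8 and -5.24 and -2.60 for S100a9. The smaller bounds in ΔIRIS go with the smaller resting counts of that library.

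Among the T-cell members the co-receptor genes had the most reads. Cd4 had 273 and 2 counts in resting and LPS ΔleftPAL cells, or 11.2 and 0.0742 CPM, and 496 and 1 counts in ΔIRIS cells, or 17.1 and 0.0341 CPM. The log2 ratio was -7.23 (interval -10.29 to -5.37) in ΔleftPAL and -8.97 (-14.27 to -6.48) in ΔIRIS. Cd8a had 84 and 1 counts in ΔleftPAL, a log2 ratio of -6.53 (-11.85 to -4.02), and 202 and 0 counts in ΔIRIS, at least 67.9-fold lower (upper end -5.77). By gene counts both co-receptors were thus at or under the floor in both LPS libraries. The kallisto table had them above it, with 28.8 and 25.9 estimated counts of Cd8a and 9.02 and 6.15 of Cd4 in LPS ΔleftPAL and ΔIRIS cells, so the sizes of these differences depend on the table. From estimated counts with 0.5 CPM added, the log2 ratio of Cd8a was -1.87 in ΔleftPAL and -2.63 in ΔIRIS. The Cd8a estimates after LPS all lay on a single transcript, which had 50.7 and 79.8 estimated counts at rest. The other Cd8a transcript had 79.0 and 157 at rest in ΔleftPAL and ΔIRIS and 0 in both LPS libraries.

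The CD3 chains were read at 0 in both LPS libraries. Cd3g had 50 counts in resting ΔleftPAL and 11 in resting ΔIRIS cells, and was at least 18.4-fold and at least 3.70-fold lower after LPS. The upper ends of its intervals were -3.85 and -1.34 on the log2 scale. Cd3e had 17 and 5 counts, and was at least 6.25-fold lower after LPS in ΔleftPAL (upper end -2.19). In ΔIRIS the upper end of its interval was 0.11, so this difference was not detectable with so few reads. Thy1 had 29 and 0 counts in ΔleftPAL, at least 10.7-fold lower (upper end -3.02), and 9 and 2 counts in ΔIRIS, with a log2 ratio of -2.18 (-5.43 to 0.09) that was not detectable either. Ncr1, the NK member, had 27 and 0 counts in ΔleftPAL and 13 and 0 in ΔIRIS, at least 9.93-fold and at least 4.37-fold lower (upper ends -2.91 and -1.62). The weakest T-cell and NK members therefore had too few resting reads in ΔIRIS to show how much lower they were.

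A gene was called when CPM plus 0.5 differed at least 2-fold, among the 13863 genes that averaged 10 counts or more over the libraries. Of the members 9 passed this minimum and Cd3e did not. After LPS 9 of 9 were called lower in ΔleftPAL, where 17.2% of all tested genes were called lower and 18.0% higher (35.2% in either direction). In ΔIRIS 6 of 9 were called lower (Cd4, Cd8a, Lyz2, Csf1r, S100a8 and S100a9), against 19.3% of all tested genes (38.5% in either direction), and Cd3g, Thy1 and Ncr1 were not called. All of the 9 but Lyz2 reached the minimum only through their resting reads, so these counts are a description. With no minimum 10 of 10 members were called lower in ΔleftPAL and 6 of 10 in ΔIRIS. With 5 CPM in place of 0.5 CPM added, 4 were called lower in each genotype. The median log2 ratio of the 10 members on this scale was -2.94 in ΔleftPAL and -1.33 in ΔIRIS, or -2.70 and -1.06 with counts under the floor set to it. The median of all tested genes was 0.03 and 0.04. With the floor and no CPM added, the median of the members was -4.97 and -2.88. In an edgeR quasi-likelihood fit of genotype and LPS over the 4 libraries, which takes the LPS difference to be the same in both genotypes and has 1 residual degree of freedom, 9 of 9 tested members were lower after LPS, with adjusted p from 0.000129 (Csf1r) to 0.0204 (Thy1). In this fit, chosen after seeing the data, 28.7% of all tested genes were lower at an adjusted p under 0.05. The same minimum on counts applied and the genotypes stood in for replicates, so these values too are a description. Summed over the members, 295 CPM in resting and 1.71 CPM in LPS ΔleftPAL cells compared with 400 and 0.751 CPM in ΔIRIS cells.

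The other markers of these cell types are given beside the 17.2% and 19.3% of all tested genes that were called lower in ΔleftPAL and ΔIRIS. Of 22 tested genes of the monocyte and macrophage list, 22 were called lower after LPS in ΔleftPAL and 20 in ΔIRIS, of which 16 in each reached the minimum only through their resting reads. The same held for 6 of the 8 NK genes and 6 of the 7 dendritic-cell genes called lower in ΔleftPAL, and for 3 of 6 and 6 of 7 in ΔIRIS, so the counts of these lists are descriptions. Vcam1, an adhesion molecule of splenic macrophages and stroma, had 4752 and 4 counts in ΔleftPAL and 7667 and 1 in ΔIRIS, log2 ratios of -10.36 (-12.23 to -9.00) and -12.92 (-18.22 to -10.44). Hmox1, the heme oxygenase of macrophages that clear red cells, kept 194 of 2504 counts in ΔleftPAL and 140 of 3557 in ΔIRIS. The exceptions in ΔIRIS, named after their values were seen, were the integrin gene Itgam (304 and 450 counts) and the surface antigen gene Ly6c2 (107 and 106 counts). Of the genes on this list, 8 of 22 are also known from B cells.

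Of 20 tested T-cell genes, 17 were called lower in ΔleftPAL, and in ΔIRIS 9 were called lower and 11 were not called. None was called higher. All 17 and all 9 reached the minimum only through their resting reads. Lck, the kinase that starts T-cell receptor signalling, had 752 and 487 counts in ΔleftPAL and 537 and 503 in ΔIRIS, and was not called in either. It held 18.1 of the 24.1 CPM to which the T-cell list summed in LPS ΔleftPAL cells, and 17.2 of 22.4 CPM in LPS ΔIRIS cells. Lat, an adaptor of the same pathway, had 77 and 44 counts in ΔleftPAL and 49 and 29 in ΔIRIS. On this list 8 of 25 genes are also known from B cells, 9 and 11 genes were at 0 in the LPS libraries, and the receptor constant gene Trac, named after its values were seen, had 2 counts in each of them.

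The NK list had 8 of 10 tested genes called lower in ΔleftPAL and 6 in ΔIRIS. On this list 3 of 17 genes are also known from B cells. Cd244, a receptor of NK cells, had 285 and 66 counts in ΔleftPAL and 387 and 34 in ΔIRIS. Ccl5, a chemokine of NK and memory T cells, had 132 counts in both ΔleftPAL libraries and 385 and 60 counts in ΔIRIS. Of the 16 neutrophil genes 15 had a lower CPM after LPS in each genotype, and the list summed to 38.9 and 0.891 CPM in ΔleftPAL and 34.0 and 0.307 CPM in ΔIRIS. The receptor gene Csf3r fell from 177 to 2 counts and from 123 to 0, and the cytokine gene Il1b from 384 to 15 and from 666 to 5. On the dendritic-cell list 7 of 9 tested genes were called lower in each genotype. Its integrin gene Itgax had 760 and 20 counts in ΔleftPAL and 1663 and 16 in ΔIRIS, whereas the receptor gene Flt3 had 435 and 1220, which was called higher, and 760 and 1055. Flt3 held 45.3 of the 51.9 CPM of the dendritic-cell list in LPS ΔleftPAL cells, and 36.0 of 40.2 CPM in LPS ΔIRIS cells. Of the 10 genes of that list 3 are also known from B cells.

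**Figure D2:**
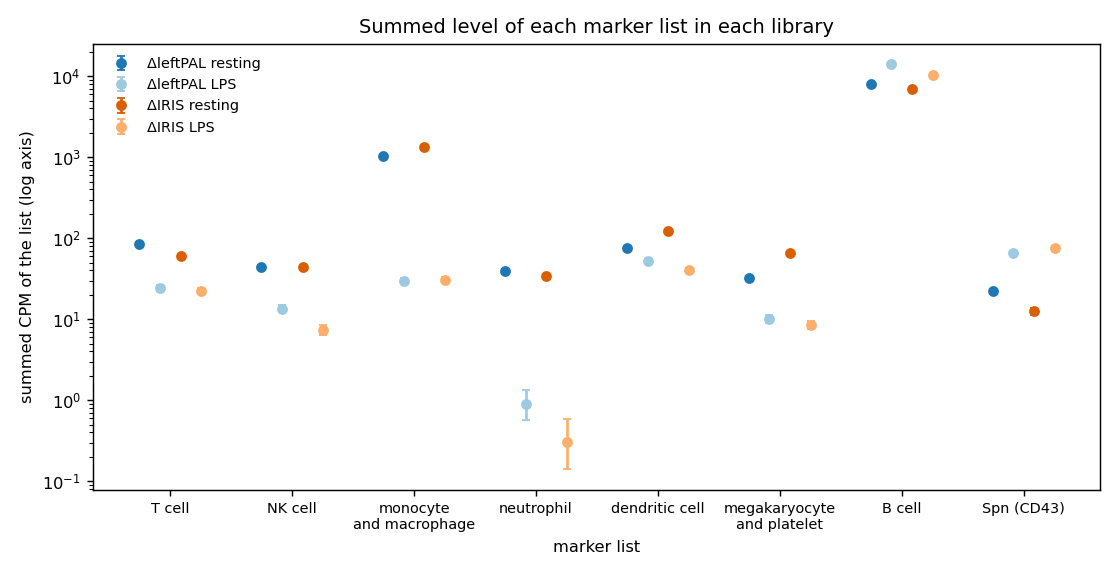
Summed CPM of 7 marker lists and of Spn in each library on a log axis, with exact 95% Poisson intervals of the summed counts. Of the lists plotted the neutrophil list is lowest after LPS at 0.891 and 0.307 CPM, whereas Spn and the sum of the B-cell list are higher after LPS than at rest, the latter through Ighm.

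The B-cell list summed to 8050 and 14031 CPM in resting and LPS ΔleftPAL cells and to 6923 and 10365 CPM in ΔIRIS cells, through Ighm, the heavy chain gene of IgM, which rose from 3355 to 11707 CPM and from 3025 to 8011 CPM. Of its 10 genes 9 and 8 had a lower CPM after LPS, 5 and 4 were called lower, and the medians of the log2 ratio were -0.98 and -0.77. The 3 tested endothelial and stromal genes were called lower in both genotypes, against 17.2% and 19.3% of all tested genes. In each genotype 2 of the 3 reached the minimum only through their resting reads, so this count too is a description. On this list 1 of 8 genes is also known from B cells. Among the tested genes of this list the adhesion molecule gene Pecam1 had 4428 and 2160 counts in ΔleftPAL and 4761 and 2153 in ΔIRIS. The cadherin gene Cdh5 had 28 and 8 and then 25 and 3. No gene of the basophil and mast cell list, which summed to 0.722 CPM at most, had enough reads, with Gata2 at 4 and 0 counts in ΔleftPAL and 14 and 0 in ΔIRIS, and Cd200r3 at 5 and 2 and then 1 and 1. Related to the reads of Cd79a, Cd79b and Ms4a1 in the same library, Csf1r stood at 70.8 and 0.201 reads per 1000 of these B-cell reads in ΔleftPAL and at 112 and 0.106 in ΔIRIS. Lyz2 stood at 40.7 and 0.880, and at 74.0 and 0.297. Both members were therefore also lower after LPS relative to B-cell reads. The erythroid list moved in the same direction (6 of 6 tested genes called lower in each genotype), and its part in these differences was not tested.

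The second comparison was that of the resting ΔIRIS and ΔleftPAL libraries, which sets the RNA of other cells in the 2 libraries side by side after the same purification. It split the members. The macrophage members and the co-receptors were higher in ΔIRIS. Lyz2 was read at 97.2 CPM in ΔleftPAL and 149 CPM in ΔIRIS, a log2 ratio of 0.61 (interval 0.54 to 0.69), and Csf1r at 169 and 225 CPM (0.41, 0.35 to 0.47). Cd4 stood at 11.2 and 17.1 CPM (0.61, 0.39 to 0.83) and Cd8a at 3.44 and 6.95 CPM (1.01, 0.64 to 1.40). These ratios were 1.33-fold to 2.02-fold, and each interval excluded 0.

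The remaining 6 members were lower in ΔIRIS. S100a9 stood at 5.24 CPM in ΔleftPAL and 0.826 CPM in ΔIRIS, 6.35-fold lower (log2 ratio -2.67, interval -3.36 to -2.03). S100a8 stood at 3.52 and 0.688 CPM, 5.12-fold lower (-2.36, -3.14 to -1.64). Both calprotectin subunits thus differed by similar factors. Cd3g stood at 2.05 and 0.378 CPM, 5.41-fold lower (-2.44, -3.53 to -1.48), and Cd3e at 0.696 and 0.172 CPM, 4.05-fold lower (-2.02, -3.81 to -0.52). Thy1 stood at 1.19 and 0.310 CPM (-1.94, -3.20 to -0.82), and Ncr1 at 1.11 and 0.447 CPM (-1.31, -2.38 to -0.30). The CD3 chains and Thy1 therefore stood lower in the library in which the co-receptors Cd4 and Cd8a stood higher. Spn itself was also lower in resting ΔIRIS cells (-0.81, -1.01 to -0.62).

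By the 2-fold rule 4 of 9 tested members were called lower (Cd3g, Thy1, S100a8 and S100a9) and 0 higher. Of all tested genes 1.21% were called lower and 2.13% higher (3.34% in either direction). The 4 called members reached the minimum only through resting ΔleftPAL, the library in which they were high, so their count is a description. Without a minimum it was 4 of 10. The count was 0 with 5 CPM in place of 0.5 CPM added, or among the 4 members that averaged 50 counts or more. Those 4 were Cd4, Cd8a, Lyz2 and Csf1r, so that minimum did not test the called members. In the edgeR fit of genotype and LPS over the 4 libraries no member passed for genotype (lowest adjusted p 0.629, S100a9), 3 had an unadjusted p under 0.05, and 0.00721% of all tested genes passed. The fit takes the genotype difference to be the same at rest and after LPS. Cd3g, Ncr1, S100a8 and S100a9 had 0 reads in both LPS libraries, so for them it rests on the resting pair alone. Its genotype result therefore cannot decide whether the resting libraries differ. The interval of the log2 ratio also excluded 0 for the other 5 tested members, whose differences were smaller than 2-fold on the scale of CPM plus 0.5. The median over the 10 members was -0.80 on that scale, with 0.00 for all tested genes, and -1.62 with no CPM added.

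**Figure D3:**
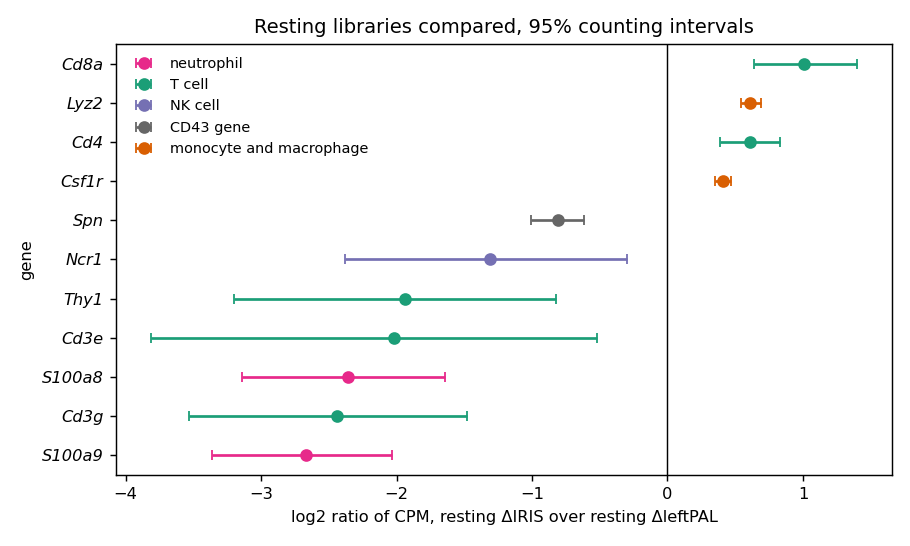
Log2 ratio of CPM of resting ΔIRIS over resting ΔleftPAL for the 10 members and Spn, coloured by marker list, with 95% counting intervals. The co-receptors and macrophage members lie to the right of 0 and the CD3 chains, Thy1, Ncr1, S100a8, S100a9 and Spn to the left.

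Of the 25 genes of the T-cell list 22 had a lower CPM in ΔIRIS, with a median log2 ratio of -0.72. Of 20 tested 8 were called lower and 0 higher, where 1.21% and 2.13% of all tested genes were, and 7 of the 8 reached the minimum only through resting ΔleftPAL, in which they were high. Besides Cd3g and Thy1 these were Cd3d, Cd247, Trac, Trbc1, Trbc2 and Zap70, named after their values were seen. They encode further CD3 chains, constant regions of the T-cell receptor, and a kinase downstream of it. Trac had 44 counts in ΔleftPAL and 4 in ΔIRIS (log2 ratio -3.71, interval -5.65 to -2.25), and Trbc2 90 and 32 (-1.74, -2.37 to -1.15). Lck had 752 and 537 counts (-0.74, -0.90 to -0.58), and Lat 77 and 49 (-0.90, -1.45 to -0.37). Cd4 and Cd8a were thus apart from most of their list.

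The dendritic-cell list lay on the other side, with 8 of 10 genes higher in ΔIRIS. Against 2.13% of all tested genes, 2 of 9 tested on this list were called higher, Xcr1 and Clec9a, named after their values were seen. They encode receptors of the CD8α+ type of dendritic cell. Xcr1 had 68 and 236 counts (1.54, 1.15 to 1.96) and Clec9a 82 and 211 (1.11, 0.74 to 1.50). Itgax had 760 and 1663 counts (0.88, 0.75 to 1.00). The summed level of the list was 75.7 CPM in ΔleftPAL and 122 CPM in ΔIRIS, and its part in the difference of Cd4 and Cd8a was not tested.

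Of the 22 monocyte and macrophage genes 17 were higher in ΔIRIS, with a median of 0.31. Only Cd163, a hemoglobin scavenger receptor, was called higher, with 335 and 909 counts (1.19, 1.01 to 1.37), and only Ly6c2, an antigen of inflammatory monocytes and of some T cells, was called lower, with 337 and 107 counts (-1.91, -2.23 to -1.59). Both were named after their values were seen, and of all tested genes 2.13% were called higher and 1.21% lower. Vcam1 had 4752 and 7667 counts (0.44, 0.39 to 0.49), close to the difference of Csf1r, and Hmox1 had 2504 and 3557 (0.26, 0.18 to 0.33).

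Of the 16 neutrophil genes 12 had a lower and 4 a higher CPM in ΔIRIS. The median log2 ratio was -0.23, or -0.42 with the floor and no CPM added. The calprotectin genes were 2 of the 7 tested and the 2 called lower, where 1.21% of all tested genes were. Both reached the minimum only through resting ΔleftPAL, in which they were high, so this count is a description. Ngp, a granule protein gene of neutrophils that did not reach the minimum and was named after its values were seen, had 22 and 6 counts (-2.13, -3.72 to -0.78). Csf3r had 177 and 123 counts (-0.78, -1.12 to -0.44), and Il1b, which macrophages also make, 384 and 666 (0.54, 0.36 to 0.73). The neutrophil genes Retnlg and Ltf were named after their values were seen. Retnlg had 25 and 25 counts (-0.25, -1.11 to 0.61) and Ltf 20 and 17 (-0.49, -1.51 to 0.52). Both intervals included 0 and lay above those of the calprotectin genes. Ly6g, the surface antigen that defines mouse neutrophils, was at 1 and 0 counts.

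On the NK list 12 of 17 genes had a lower CPM in ΔIRIS, with a median of -0.55, or -0.95 with the floor and no CPM added. Of 10 tested genes 2 were called lower, Gzma (48 and 13 counts) and Il2rb (89 and 44), against 1.21% of all tested genes. Ccl5 was called higher (132 and 385), as were 2.13% of all tested genes. Klrd1, an NK receptor subunit named like Gzma and Il2rb after its values were seen, had 132 and 159 counts (0.02, -0.32 to 0.36). The megakaryocyte and platelet list was higher in ΔIRIS for 8 of 8 genes, with a median of 0.94. Of 7 tested 4 were called higher (Pf4, Ppbp, Itga2b and Treml1), against 2.13% of all tested genes. Pf4 and Treml1 reached the minimum only through resting ΔIRIS, as Gzma did through resting ΔleftPAL. Its integrin gene Itgb3 had 462 and 857 counts (0.64, 0.48 to 0.81) and was not called. The B-cell list had 0 of 10 genes called and a median of -0.10, and the erythroid list had 0 of 6 and a median of -0.44.

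**Figure D4:**
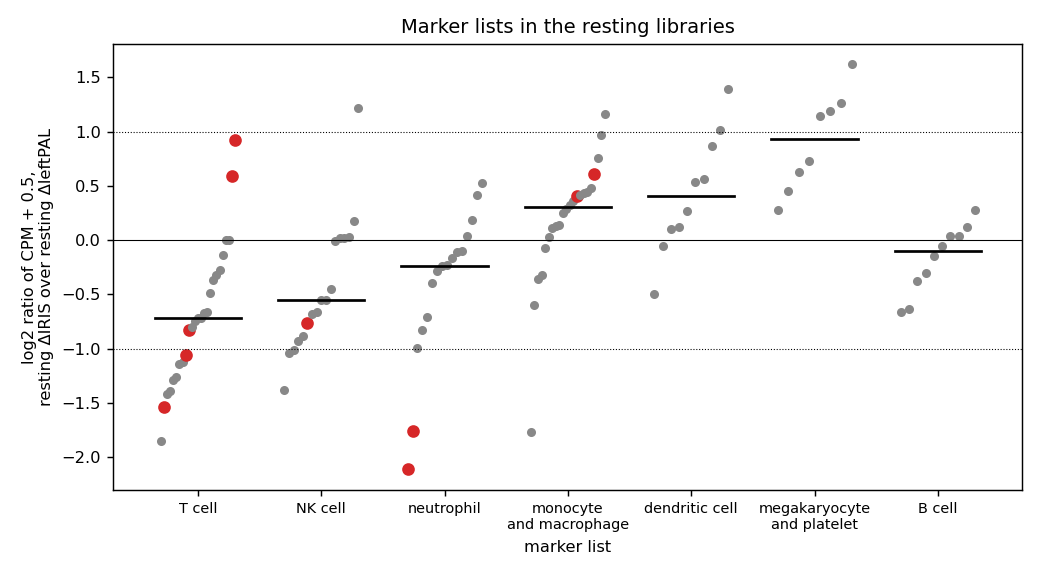
Log2 ratio of CPM plus 0.5 of resting ΔIRIS over resting ΔleftPAL for each gene of 7 marker lists, with members in red, the median of each list as a bar and dotted lines at 2-fold. The T-cell list has its median at -0.72 with Cd4 and Cd8a at its upper end, and S100a8 and S100a9 are the lowest genes of the neutrophil list.

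Proportions between members within a library do not depend on the scaling of libraries. The reads of S100a8 were 40.2% (95% Clopper-Pearson interval 33.6 to 47.1) of the calprotectin reads in resting ΔleftPAL cells and 45.5% (30.4 to 61.2) in resting ΔIRIS cells. Cd3g made up 74.6% (62.5 to 84.5) and 68.8% (41.3 to 89.0) of the reads of Cd3e and Cd3g, and Cd8a 23.5% (19.2 to 28.3) and 28.9% (25.6 to 32.5) of those of Cd4 and Cd8a. In these 3 pairs the intervals of both libraries overlapped. Lyz2 made up 36.5% (35.3 to 37.7) and 39.8% (38.9 to 40.7) of the reads of Lyz2 and Csf1r, which did not overlap but were close.

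Proportions across the pairs differed more. The CD3 chains were 15.8% (12.5 to 19.6) of the reads of Cd3e, Cd3g, Cd4 and Cd8a in resting ΔleftPAL cells and 2.24% (1.29 to 3.61) in resting ΔIRIS cells. The calprotectin genes were 3.19% (2.78 to 3.64) and 0.404% (0.294 to 0.542) of the reads of S100a8, S100a9, Lyz2 and Csf1r. The CD3 chains and the co-receptors, and likewise the calprotectin and the macrophage genes, thus did not keep a common proportion in the 2 libraries. These last 2 proportions and that of Lyz2 were chosen after the values were seen.

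**Figure D5:**
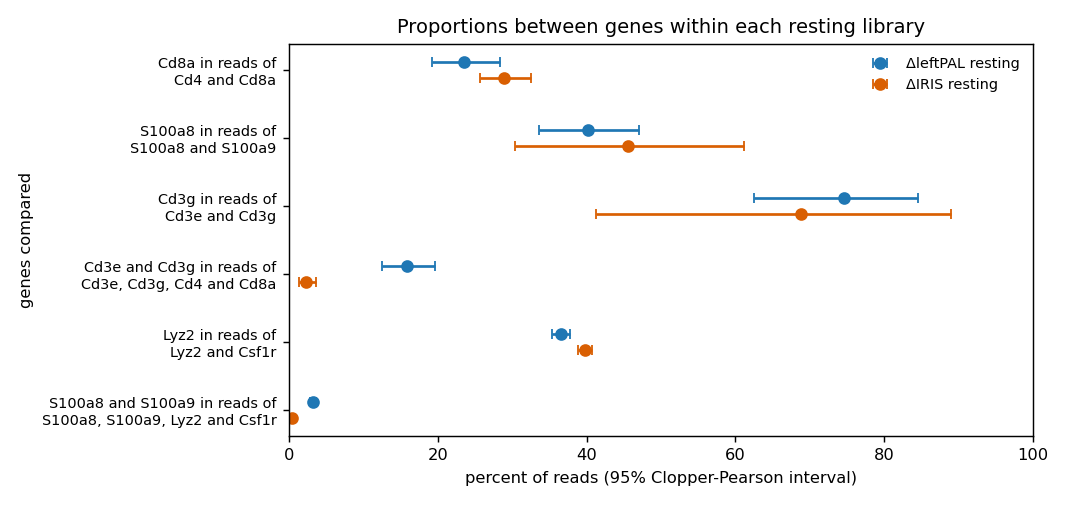
Percent of the reads of a group of members that came from the named members in each resting library, with 95% Clopper-Pearson intervals. Pairs such as S100a8 with S100a9 overlap between ΔleftPAL and ΔIRIS, whereas the share of the CD3 chains is 15.8% against 2.24%.

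The third comparison was that of the LPS libraries of ΔIRIS and ΔleftPAL. None of the 9 tested members was called, where 0.620% of all tested genes were called higher and 1.49% lower, 2.11% in all. Lyz2 had 35 counts in ΔleftPAL and 14 in ΔIRIS, a log2 ratio of -1.44 (interval -2.45 to -0.51), 2.72-fold lower. Csf1r had 8 and 5 counts (-0.80, -2.76 to 0.99), which these few reads could not resolve. By gene counts the other 8 members were at or under the floor in both libraries, so that no ratio is given. The Lyz2 difference had the opposite sign to the resting one.

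Among 11286 genes that averaged 50 counts or more, the profiles nearest to 4 members were sought by Euclidean distance between centred log2 values of CPM plus 0.5 over the 4 libraries. For Csf1r these were Slc40a1 at a distance of 0.14, Gda at 0.40 and C1qa at 0.53, and 2 genes lay within 0.5. Slc40a1, the iron exporter ferroportin, had 3087 and 3 counts in ΔleftPAL and 4535 and 1 in ΔIRIS, and C1qa, a complement subunit made by macrophages, 1989 and 0 and 3163 and 0. For Cd4 the nearest were Epb4.1l3 at 0.04, Rgs2 at 0.09 and Lphn3 at 0.10, with 42 genes within 0.5. Epb4.1l3 had 268 and 2 counts in ΔleftPAL and 505 and 1 in ΔIRIS, whereas Rgs2 kept 260 of 4780 and 262 of 8385 counts.

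For S100a9 the nearest were Slfn1 at 0.41, Gbp6 at 0.45 and Ifi44 at 0.52 and 2 genes lay within 0.5. Slfn1 had 228 and 8 counts in ΔleftPAL and 40 and 16 in ΔIRIS. For Ncr1 they were Gm22486 at 0.09, Zmat1 at 0.10 and Uba7 at 0.13, and 312 genes lay within 0.5. Gm22486 had 1023 and 359 counts in ΔleftPAL and 745 and 361 in ΔIRIS. Since S100a9 and Ncr1 had 0 reads after LPS, their distances to genes that kept reads depend on the added 0.5 CPM, as does that of Cd4 to Rgs2. With 4 points the likeness is a description.

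The transcript-based values were close to the gene counts for most members. Lyz2 had 2392 and 4337 kallisto estimated counts in the resting ΔleftPAL and ΔIRIS libraries, and S100a9 had 127 and 24.0. For Cd8a the estimates were also higher at rest, 130 in ΔleftPAL against 84 gene counts and 237 in ΔIRIS against 202. The cause of these differences between the tables was not tested.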

How the data were processed

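The members are the 10 gene rows named Cd3e, Cd3g, Cd4, Cd8a, Thy1, Ncr1, Lyz2, Csf1r, S100a8 and S100a9. These members and all marker lists were chosen with earlier results of these data known. The authors mapped paired 150 nt reads with STAR 2.4.0a to mm10 and deposited unnormalised fragment counts per gene name, made with featureCounts of Subread 1.4.6-p1 on Ensembl release 77. Their options counted primary alignments of multi-mapping reads and used strand. The authors also deposited kallisto estimated counts per transcript, and TPM values per transcript from the same tool (version 0.42.3 per the labels, index and settings not given in the sources used here). Estimated counts and TPM were summed per gene here.

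Counts of 41342 named genes were scaled to CPM with TMM effective library sizes (edgeR 4.0.16, R 4.3.3). A row without a gene name, 0.00876% to 0.0264% of the counts, was left out. Totals and the floor of 3 counts are given in the report. With 1 library a group no comparison within a genotype or a condition has a test. An additive fit of genotype and LPS over the 4 libraries (edgeR quasi-likelihood, Benjamini-Hochberg adjustment, 1 residual degree of freedom) was added after seeing the data. Ratios carry 95% exact Clopper-Pearson intervals of the conditional binomial share of reads (scipy 1.17.1), which cover counting error only. With 1 library a group they leave out differences between mice, pools and preparations. Amplified copies of a molecule are not independent, so the counting error itself can be understated. A gene was called at a 2-fold difference of CPM + 0.5, over the 13863 genes averaging 10 counts or more. The CPM + 0.5 scale understates the change of low genes. The procedure was tested on simulated counts.

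Genes named are the members, Spn, the top 2 other genes of each marker list by mean CPM, and the 3 genes with the profile nearest to the member of highest mean count in each of 4 lists. Any other gene was named after its values were seen. Alternative scalings were DESeq2 1.42.0 size factors, total counts and TMM without immunoglobulin genes. Further alternatives were the kallisto tables, other count minimums and other added CPM. The sum of 3 B-cell genes and the total without erythroid genes were chosen as scalings after seeing the data. Promoter sequences are RefSeq's for GRCm38.p6, and 7 of 10 members were in that table. Another 2 genes were left out of the marker lists and are not reported here.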

Additional observations from a re-analysis of the deposited data

Results flagged for a closer look

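Several genes stood on opposite sides in the resting and the LPS comparison of ΔIRIS with ΔleftPAL, with counting intervals that excluded 0 in both. Among the members this held for Lyz2, with a log2 ratio of 0.61 at rest and -1.44 after LPS, the second from 35 and 14 counts. Among the top 2 other genes of each marker list the values were 1.29 and -1.26 for Ccl5, 0.26 and -0.59 for Hmox1, 0.54 and -1.71 for Il1b, 0.55 and -0.33 for Flt3, and 1.21 and -1.84 for Itga2b. The opposite order, lower at rest and higher after LPS, was found for Hbb-bs (-0.47 and 1.07), Hba-a1 (-0.62 and 1.07), Ms4a1 (-0.05 and 0.29) and Spn (-0.81 and 0.20). Genes named on other grounds could change sides in this order too. Itgam stood at 13.1 CPM in ΔleftPAL and 10.5 CPM in ΔIRIS at rest, and at 5.20 and 15.4 CPM after LPS. Ifi44 had 729 and 249 counts at rest and 52 and 96 counts after LPS. With 1 library a group, the difference between the resting and the LPS ratio was not tested.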

How the results depend on the processing

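Within a group there are no replicates to match. In the additive edgeR fit, with the genotypes as a replicate block for LPS and the conditions as a block for genotype, 9 members passed for LPS, against 9 and 6 by the 2-fold rule, and 0 for genotype, against 4 at rest and 0 after LPS. Leaving out a replicate was not possible either. The genotype part of the fit takes the same difference at rest and after LPS, so it is no check of the resting count. Of the members called between LPS and resting ΔleftPAL cells, 9 in the report, 4 were called with a mean of at least 50 counts, a minimum that left 4 members, and 4 with 5 CPM added. Between the resting libraries, where 4 were called lower, 0 were called with either of these settings. The minimum of 50 counts left out all of the members called at rest, so it did not test their calls. Scaled by Cd79a, Cd79b and Ms4a1 the resting count was again 4, of which 1 was higher (Cd8a) and 3 lower, without Thy1. Between the LPS libraries, where 0 were called, 1 was called with 0.1 CPM added and 1 with the B-cell scaling, Lyz2 in both. Between LPS and resting ΔIRIS cells the count ranged from 4 to 9 around 6. Of 280 member ratios under other scalings and tables, 260 moved by less than their counting interval and 20 by more, and of the 217 that were at least 0.3 in size 0 changed sign. The 260 include the ratios of Cd3e, Cd3g, Ncr1, S100a8 and S100a9 between the LPS libraries. With 0 reads in both libraries these could not move. The median log2 ratio of all genes for LPS over resting, 0.03 in ΔleftPAL and 0.04 in ΔIRIS, was 0.65 and 0.33 with the B-cell scaling and -0.34 and -0.33 with TPM, and that of the resting libraries, 0.00, was 0.22 with the B-cell scaling. All genes called higher and lower after LPS, 2497 and 2383 in ΔleftPAL and 2671 and 2671 in ΔIRIS, became 5128 and 1292, and 3777 and 2028, with the B-cell scaling, and 1505 and 3120, and 1536 and 3314, with TPM. Between the resting libraries 295 and 168 became 523 and 72 with the B-cell scaling, 248 and 216 with estimated counts and 189 and 255 with TPM, and between the LPS libraries 86 and 206 became 69 and 301 with the B-cell scaling. Depth limits Cd3e, Cd3g, Thy1 and Ncr1, with 5 to 13 counts in resting ΔIRIS cells.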
